A study of Mus musculus with 15 samples.

Results

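The baseline liver transcriptome described here is that of 3 nontransgenic littermates, which gave 3 of the 15 arrays of a study of human alpha1-antitrypsin. They were chosen by label alone, as the arrays titled wild type (WT). These mice were adult males aged 3 months that carried no alpha1-antitrypsin (AAT) transgene and received no doxycycline. The other 4 groups of 3, which carried the mutant (Z) or the wild type (M) form of the human protein under an inducible switch acting in hepatocytes, were not analysed here. With 1 group there was nothing to test, so levels, shares and spread are given as descriptions. The labels call the 3 samples biological replicates and do not say whether livers were pooled; with 1 array each, the spread between animals and that between arrays cannot be told apart.

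Most of the liver's mass is hepatocytes, which make and secrete most plasma proteins, dispose of ammonia as urea, burn and build fatty acids, make cholesterol and bile acids, and modify drugs for excretion. Secreted proteins enter the endoplasmic reticulum (ER), where chaperones fold them before they are carried to the cell surface. Hepatocyte gene expression is also known to follow feeding, the time of day, sex hormones and inflammation, and the labels used here give neither the time of day nor the feeding state.

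The Affymetrix mouse arrays gave a linear signal for 22690 probe sets, and the mean after trimming 2% at the ends was 150.08 on each of the 3 arrays. Of these, 64 were array controls, 20380 had 1 gene, 691 had several genes and 1555 had none in the table of probe genes. For each of 12393 genes the brightest single-gene probe set was used. The median gene signal was 54.6, 55.9 and 58.6 on arrays 1, 2 and 3. Across all probe sets other than controls, log2 signals, taken after adding 16, correlated with r of 0.968 to 0.973 between pairs of arrays. For actin the 3' control was 2.34 to 2.46 times as bright as the 5' control, and for Gapdh 1.05 to 1.11 times. The 3' control for 18S ribosomal RNA was lowest on array 3, with 901.3, 894.6 and 540.7, and its part in the results was not tested.

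A rank by signal is not a rank by number of molecules, because probe sets differ in how strongly they bind. Among 2444 genes with a mean signal of at least 100 and more than 1 probe set, the brightest probe set exceeded the second by a median of 2.15-fold, and by more than 10-fold in 10.8% of them. Levels are therefore given for each gene, and the order among genes is one of signal only. Of the 100 brightest probe sets, 83 had 1 gene and stood for 71 genes, 8 had several genes and 9 had none. The brightest probe set of all, with 16770, 17383.7 and 22995.4, was among those with no gene.

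Secreted plasma proteins led the signals. The brightest gene was Serpina1c, a mouse relative of the human transgene and an inhibitor of serine proteases, with 14864.5, 15944.7 and 20064.3 on arrays 1 to 3 (mean 16958 ± 2744, SD, n = 3). Its neighbour Serpina1b, at place 7, read 11713.1, 12348.5 and 15180.4. The mouse Serpina1 genes are near-identical copies, so the signal of one may include that of another, and the same holds for the Mup, Cyp2c, Gstp, Saa, Orm, Mt, Hspa1 and H2 genes below. Places 2 and 3 were held by the main proteins of high-density lipoprotein, Apoa2 with 16303 ± 2379 and Apoa1 with 16187 ± 1927. Apoc3, which slows the breakdown of triglyceride-rich lipoproteins, gave 11570.0 ± 803, and Apoe, a ligand for lipoprotein uptake, gave 10797 ± 1139. All 4 apolipoproteins were brightest on array 3.

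Albumin (Alb), the main protein of plasma, read 12758.3, 13392.2 and 15836.6, and transthyretin (Ttr), which carries thyroid hormone, read 12124.8, 13221.9 and 14740.7. The selenium carrier Selenop followed with 10153 ± 828 and Ahsg, which binds calcium phosphate, with 9646 ± 1006. Alb, Ttr and Ahsg were lowest on array 1, Selenop was lowest on array 2, and all 4 were highest on array 3. The 3 fibrinogen chains, which form the fibrin of clots, were Fgb with 9458.5, 12888.8 and 15326.5, Fga with 8359.3, 10927.4 and 14060.6, and Fgg with 8385.9, 11215.8 and 12815. They had the highest coefficients of variation (CV, the SD over the mean) of the 30 brightest genes, at 23.5%, 25.7% and 20.8%, and each was lowest on array 1.

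Other secreted or blood-borne products near the top were Hamp, the hormone hepcidin that limits iron export, with 9808, 7973.1 and 10970.6, and the heme carrier Hpx with 9270.5, 7684.1 and 9322.4. Pzp, a broad protease trap, gave 9786 ± 756. Hamp and Hpx were lowest on array 2, unlike the fibrinogens. Of the 50 brightest genes, 24 belonged to lists of plasma and lipoprotein proteins, among them 6 apolipoproteins, 6 carriers and hormones, 5 protease inhibitors and 4 coagulation factors.

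**Figure D1:**
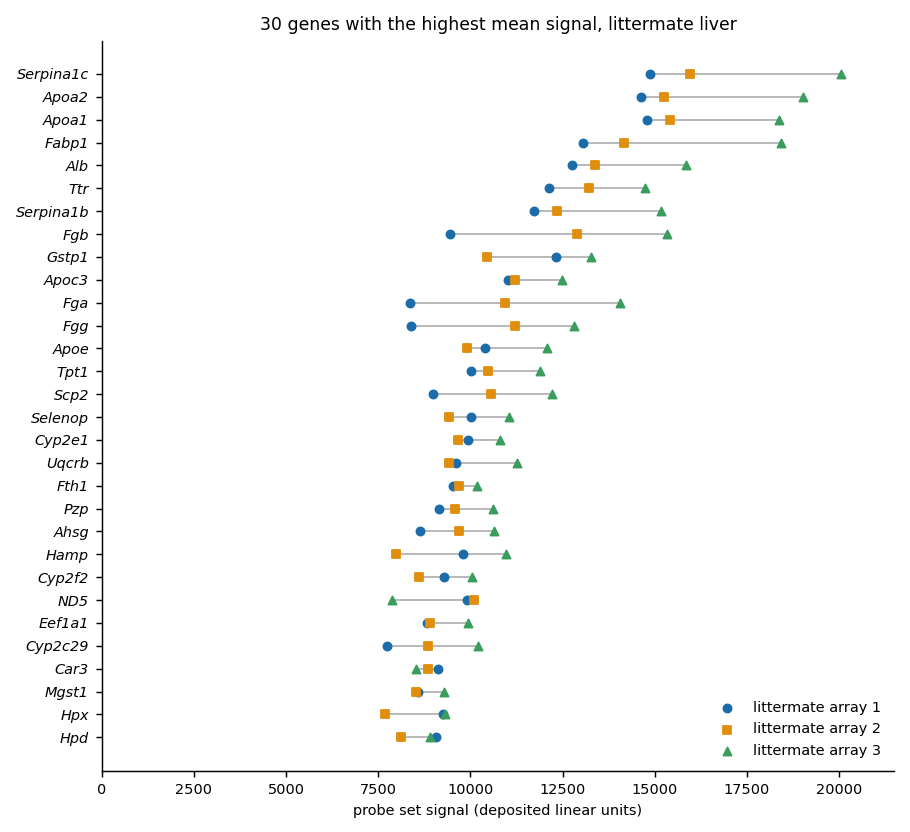
Signal of the 30 genes with the highest mean, in deposited linear units, with 1 point for each of the 3 littermate arrays and a line from the lowest to the highest. Array 3 was the highest in 27 of the 30 genes, and the 3 fibrinogen genes have wide lines with array 1 at the left.

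Array 3 was the highest array in 27 of the 30 brightest genes and in 41 of the 50 brightest. Its signal exceeded that of array 1 by a median of 1.13-fold over the 50 brightest genes. Over the 4595 genes with a mean signal of at least 100 the median was 1.01-fold. After quantile normalization, which gives the 3 arrays the same distribution of signals, array 3 was the highest in 5 of the 30, array 1 in 16 and array 2 in 9. The height of array 3 among bright genes thus depended on the scaling. The fibrinogens kept array 1 as the lowest after quantile normalization, with Fgb at 10095, 13456 and 13622, Fga at 8349, 11336 and 12105, and Fgg at 8368, 12105 and 11127.

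Promoters of the brightest genes are shown because these genes share high signal in 1 tissue and several hold the core letters of the site of HNF1, a hepatocyte transcription factor. In RefSeq windows of GRCm38.p6 that run from 250 bases before to 50 after a gene's start, 41 of the 50 brightest genes had an entry. The letters GTTAAT, searched on both strands as every motif here, were in 8 of the 41 (19.5%), namely Alb, Apoe, Fabp1, Fga, Fgb, Pzp, Serpina1b and Serpina1c. They were in 6.07% of 3792 genes with a mean signal of at least 100, and in 8.24% of all 27025 genes with an entry. A gene counts where any of its promoters holds the letters. The TATA box, searched as TATAAA, was in 11 of the 41 (26.8%), in 9.39% of the 3792 genes and in 15.7% of all genes with an entry. Of the other motifs searched, CCAAT was in 41.5% of the 41 against 43.1% of the 3792. The metal response cores TGCACNC and TGCGCNC were in 14.6% each, against 14.3% and 30.3%. The HNF4 site CAAAGTCCA and the sterol response element TCACNCCAC were each in 1 of the 41 (2.44%), against 0.686% and 1.58%. The ER stress and heat shock elements were in 0 of the 41, against 0.264% and 0.659%. A match describes letters only and is not a shown binding site. The 250 bases before the start are printed from 5' to 3' on the gene's strand, for Serpina1c from chr12:103904951-103905200 (minus strand), for Alb from chr5:90460620-90460869 (plus strand) and for Fgb from chr3:83049864-83050113 (minus strand). Capitals mark the match, which begins 27, 32 and 29 bases before the start; in Fgb it reads on the opposite strand.
Serpina1c: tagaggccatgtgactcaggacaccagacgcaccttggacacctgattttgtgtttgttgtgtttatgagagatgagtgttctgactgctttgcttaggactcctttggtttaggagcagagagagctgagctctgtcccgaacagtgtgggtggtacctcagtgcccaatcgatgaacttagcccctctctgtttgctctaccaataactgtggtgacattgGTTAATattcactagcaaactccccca
Alb: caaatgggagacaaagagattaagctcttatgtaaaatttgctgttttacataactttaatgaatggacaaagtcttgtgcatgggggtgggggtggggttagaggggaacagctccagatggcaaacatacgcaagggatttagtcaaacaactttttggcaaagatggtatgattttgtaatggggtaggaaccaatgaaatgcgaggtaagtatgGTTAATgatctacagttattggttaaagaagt
Fgb: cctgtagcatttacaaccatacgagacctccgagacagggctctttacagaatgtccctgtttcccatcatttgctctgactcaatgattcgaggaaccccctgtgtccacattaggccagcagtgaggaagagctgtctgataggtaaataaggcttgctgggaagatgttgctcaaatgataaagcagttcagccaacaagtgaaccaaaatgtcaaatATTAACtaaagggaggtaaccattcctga

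Among bright genes that act inside the cell, Fabp1, the fatty acid binding protein of liver cytosol, read 13064.5, 14162.6 and 18416.8. Scp2, which moves sterols and breaks down branched fatty acids in peroxisomes, read 8994.8, 10559.6 and 12225.6. Both were lowest on array 1 and highest on array 3. Gstp1, a glutathione transferase that is higher in male than in female mouse liver, gave 12317.5, 10462.9 and 13264.1 and was lowest on array 2. Fth1, the heavy chain of the iron store ferritin, gave 9802 ± 337. Car3, a carbonic anhydrase, gave 9124.1, 8846.9 and 8522.2, with the lowest CV of the 30 genes at 3.41%. ND5, a subunit of respiratory complex I encoded in the mitochondrial genome, gave 9919.6, 10086 and 7870.8 and was 1 of 2 genes of the 30 that were lowest on array 3. Car3 was the other.

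The brightest cytochromes P450, the enzymes that oxidise drugs and lipids, were Cyp2e1 with 9931.8, 9670.3 and 10799.9, Cyp2f2 with 9290.5, 8608 and 10055.2, Cyp2c29 with 7729, 8852.1 and 10194.3, and Cyp3a11 with 7634.3, 7352.4 and 8970.5. The 4 were highest on array 3, and Cyp2e1 varied least, with a CV of 5.84% against 13.8% for Cyp2c29. Mgst1, a membrane glutathione transferase, gave 8798 ± 411, and the tyrosine-degrading enzyme Hpd gave 8696 ± 503.

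The summed signal was shared out by function, each gene counting in 1 list only, over 1291 genes in 30 lists. These lists held 51.1 ± 0.668% of the signal of all genes. The 10 brightest genes held 4.12 ± 0.484%, the 50 brightest 14.4 ± 0.936% (13.7, 14.0 and 15.5% on arrays 1 to 3) and the 500 brightest 51.9 ± 0.802%. The 7798 genes with a mean signal under 100 together held 7.66 ± 0.157%. A share of signal is no share of RNA molecules.

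The 141 genes of plasma and lipoprotein proteins held 13.7 ± 0.671% (13.5, 13.2 and 14.5%). Within them, carriers and hormones held 3.08 ± 0.146%, apolipoproteins and lipoprotein assembly 2.95 ± 0.186%, protease inhibitors 2.78 ± 0.159%, coagulation and fibrinolysis 1.98 ± 0.224%, acute phase proteins 1.52 ± 0.147% and complement 1.24 ± 0.0970%. The coagulation share was 1.75, 1.99 and 2.19% and carried the order of the fibrinogens. The complement share was highest on array 1, at 1.35% against 1.17 and 1.19%, where C9, a pore-forming complement protein, read 9092.2 against 6532.1 and 7015.7. The major urinary proteins, pheromone carriers of male mice, are under-represented here, because 2 of their genes had a single-gene probe set, Mup3 with 6130.0 ± 836 and Mup5 with 381 ± 46.2.

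The largest share of a single list was that of the nuclear-encoded respiratory chain, with 4.83, 4.80 and 4.83% (4.82 ± 0.0124%) over 80 genes. It was also among the steadiest, with a median CV of 5.67% over its 73 genes at a mean signal of at least 100, where the median over all such genes was 11.5%. Uqcrb, a subunit of complex III, led it with 10097 ± 1008, and Cox6a1 of complex IV followed with 5970 ± 683. Cytosolic ribosomal proteins held 3.37 ± 0.0345% with a median CV of 7.82%, led by Rps2 with 5544 ± 159. Both lists thus held nearly the same share on each array.

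Enzymes of the urea cycle and of amino acid metabolism held 3.82 ± 0.265% (4.12, 3.68 and 3.65%), and 39 of 57 genes exceeded a mean signal of 1000. Besides Hpd they were led by Bhmt, which remethylates homocysteine, with 8423 ± 384, by Gnmt, which uses up methyl groups, with 8093 ± 310, and by Cps1, the first enzyme of the urea cycle, with 7433 ± 502. Conjugating and other drug-metabolizing enzymes held 3.81 ± 0.195%, cytochromes P450 and their electron donors 3.07 ± 0.138%, and fatty acid oxidation with ketogenesis and peroxisomes 3.50 ± 0.187%. The amino acid, conjugating and P450 lists had their highest share on array 1, and fatty acid oxidation on array 3, in the signals as deposited.

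Glucose and glycogen genes held 1.17 ± 0.0246%, led by Fbp1, an enzyme of glucose synthesis, with 7832 ± 991. Lipid and sterol synthesis held 1.25, 1.55 and 1.47%, lowest on array 1, led by Thrsp, a regulator of lipogenesis, with 7862 ± 896 and by the desaturase Scd1 with 6155 ± 814. ER folding and secretion held 1.52, 1.90 and 1.98%, again lowest on array 1. Lysosomal enzymes held 0.745 ± 0.0382%, led by the membrane protein Lamp1 with 2566 ± 68.2. Transcription factors of hepatocytes held 0.325 ± 0.0163%, led by Hnf4a with 2120 ± 181 and Cebpa with 1464 ± 213.

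**Figure D2:**
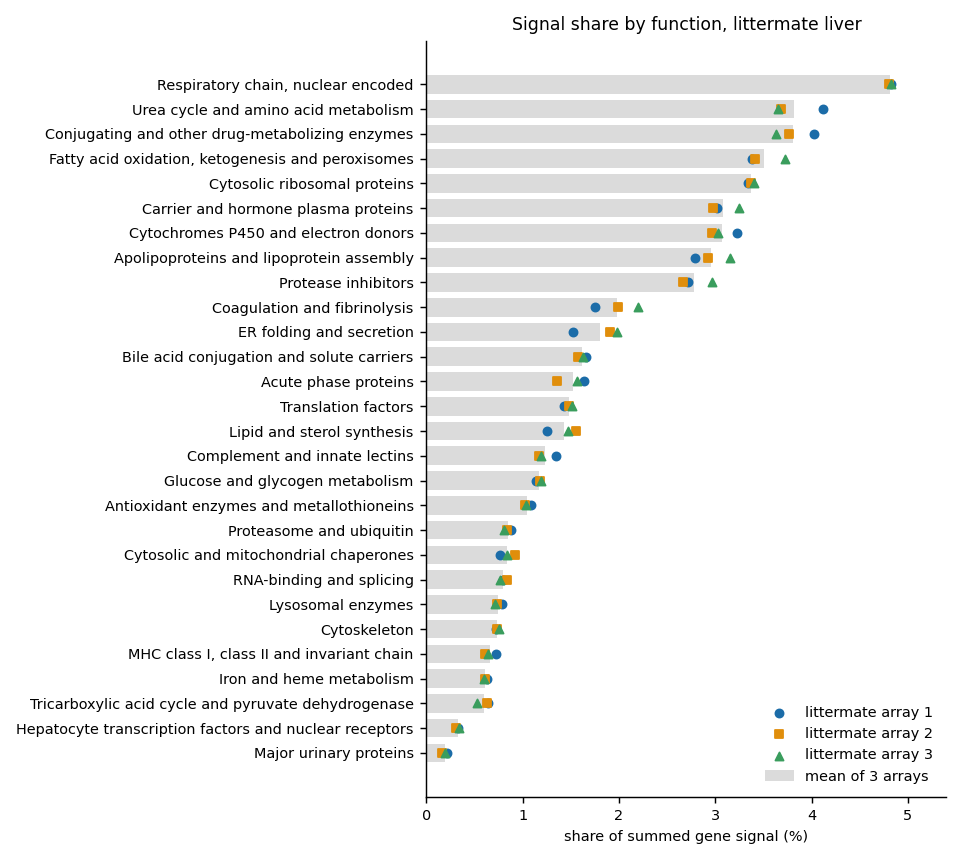
Share of the summed gene signal (%) held by each function list of more than 1 gene, with a bar from 0 to the mean of the 3 littermate arrays and 1 point per array. The respiratory chain leads with 4.82%, and the array 1 point lies left of both others for coagulation, ER folding and lipid synthesis.

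Markers of the labelled tissue were present. All 9 hepatocyte markers measured exceeded a mean signal of 1000, from G6pc, which releases glucose from its phosphate, with 1044 ± 511 to Serpina1c. Of 11 markers of Kupffer cells, the liver's macrophages, 9 reached a mean of 100, with Csf1r, the receptor of macrophage growth factor, the brightest at 885 ± 218. Of 12 markers of the sinusoidal endothelium 8 reached 100, led by the lectin Clec4g with 436 ± 54.3, and of 12 stellate cell and fibroblast markers 7 did, led by the matrix protein Dcn with 529 ± 92.4. The 7 cholangiocyte markers measured had means under 16 and summed to 33.6, 42.3 and 120.

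None of the markers of T and NK cells (8 measured), B cells (7), neutrophils (8) and skeletal muscle (10) reached 100. Of 11 exocrine pancreas markers only Cela1 did, with 744.1, 784.6 and 776.6, while the lipase Cel stood at 41.7 ± 5.65. Of 8 adipose markers only Car3 did, while the adipocyte hormone Adipoq stood at 5.37 ± 2.55. The male label was checked with sex-linked genes. Eif2s3y, on the Y chromosome, read 237.3, 247.3 and 194.6. The other Y-linked genes were dimmer, Kdm5d with 63.6, 56.3 and 90.3 and Uty with 35.5, 41 and 41.5. Xist, which coats the inactive X chromosome of females, read 35.9, 32.5 and 69.4. Levels of different probe sets cannot be set against each other, so the check rests on the Eif2s3y signal. Of 13 male-type liver genes measured, 10 exceeded a mean of 1000, including Cyp2d9 with 6328.5, 4139.6 and 4802.2. Of 15 female-type genes, Hamp2, a second hepcidin gene, was the only one to do so, with 1473.3, 3618.3 and 2644.8.

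Both ends of the liver lobule were measured. Among 15 periportal genes, those of hepatocytes near the incoming blood, 12 exceeded 1000, led after Serpina1c and Alb by Cyp2f2 and by Fbp1. Among 18 pericentral genes 8 did, led by Cyp2e1 and Cyp2c29 and followed by Cyp3a11. Glul, the glutamine synthetase of the hepatocytes next to the central vein, read 1608.6, 1228.7 and 989.9. Of 13 pericentral genes with a mean of at least 100, 9 lay above the mean of arrays 2 and 3 on array 1, with a median ratio of 1.18. Of the 15 periportal genes 8 did, with a median ratio of 1.00. Of the 4595 genes with a mean of at least 100, 46.8% lay above, with a median ratio of 0.986.

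The spread between the 3 arrays was small for most genes. Among 4595 genes with a mean signal of at least 100 (37.1% of all), the median CV was 11.5%, with quartiles of 6.95 and 17.8%. The CV was under 10% in 42.7% of them and under 20% in 80.6%. A CV over 50% was found in 53 genes, which is 1.15% of the genes counted, and 173 genes (3.76%) differed more than 2-fold between their highest and lowest arrays. The median CV depended on the signal. It was 53.8% under a mean of 16, 31.0% from 16 to 50, 17.9% from 50 to 100, 13.8% from 100 to 200 and 9.18% from 5000 upwards.

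**Figure D3:**
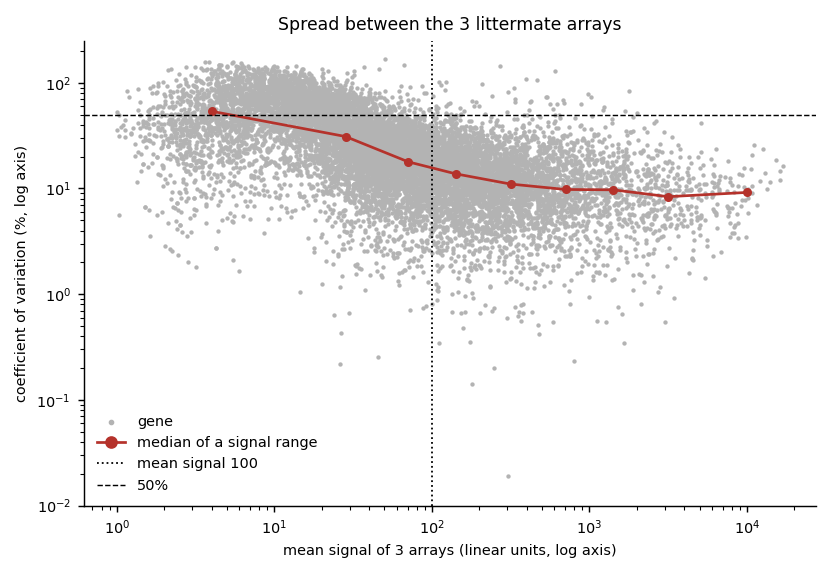
Coefficient of variation between the 3 littermate arrays (%, log axis) against mean signal (log axis) for genes with a mean of at least 1 and a spread above 0, with the median of each signal range. The medians fall from 53.8% under a signal of 16 to 9.18% above 5000, and few genes right of the line at 100 exceed 50%.

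The lowest CVs of the 4595 genes were under 1%. Dpy30, a subunit of histone methylating complexes, read 302.8, 302.7 and 302.8. Eif3i, a translation initiation factor, read 1654.7, 1665.5 and 1663.4, and Gatd3a, a mitochondrial protein, read 801.4, 799 and 802.7. Dexi, Rnf7, Mcrip1, Smap1, Elp2, Asf1a and M6pr completed the 10 lowest, all with a CV of 0.511% or less. They are the low end of a range over 4595 genes, and no gene is called invariant from 3 arrays.

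The genes with the highest CV were mostly those in which array 1 stood apart. Of the 53 genes with a CV over 50%, array 1 exceeded both others by over 1.5-fold in 24 and lay below both by as much in 16. The counts were 8 and 2 for array 2 and 7 and 14 for array 3, and a gene can count for more than 1 array. The minimum applied to the mean, so a gene high on 1 array can pass through that array alone. Nnmt, Orm2, Lcn2 and H2-Eb1, for example, read under 100 on arrays 2 and 3. Over all 4595 genes, array 1 was the low array in 138 (3.00% called) and the high array in 86 (1.87%). In the comparisons between arrays below, all genes means these 4595. Array 2 was high in 30 (0.653%) and low in 28 (0.609%), and array 3 was high in 50 (1.09%) and low in 68 (1.48%). Pairwise, 91 genes differed over 2-fold between arrays 1 and 2, 123 between 1 and 3, and 40 between 2 and 3.

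The highest CV, 145%, was that of Nnmt, which methylates nicotinamide, with 727.3, 69.3 and 18.7. Dio1, which activates thyroid hormone, read 1522.5, 176.7 and 124.6. Alas2, the heme synthesis enzyme of red cell precursors, read 1041.6, 165.5 and 196.7. All 3 were high on array 1 alone. On single-gene probe sets the red cell marker Hba-a1 stood at 25.4, 13.5 and 15.6 and Epb42 at 16.9, 0.6 and 6.8. The erythroid factor Klf1 stood at 106.7, 51.7 and 61.6. Each was highest on array 1 too, while Slc4a1 was lowest there with 17.2, 31.9 and 32.3. Of the other hemoglobin genes, Hba-a2 and Hbb-b2 were highest on array 1, and Hba-x, Hbb-bh1 and Hbb-y on array 3. Apart from Alas2, these red cell genes had means under 100, where the median CV was 17.9% or more, so their order is uncertain. Probe sets with several genes were left out, so the Hba-a1 value does not give the level of hemoglobin RNA. The part of red cell precursors in the Alas2 signal was not tested.

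Others high on array 1 were Scara5, a ferritin receptor, with 443.6, 101.7 and 80, Slc25a25, a mitochondrial carrier, with 448.6, 126 and 146.4, and Cyp8b1, which sets the ratio of bile acids, with 752.2, 289.5 and 230.4. Dusp1, a phosphatase induced by stress and by glucocorticoids, read 672.1, 206.5 and 115.5. In the opposite direction, Gstm5, a glutathione transferase, read 193.2, 2054.9 and 3126.9, and the chemokine Cxcl1 read 153.8, 850.7 and 1024. Acacb, which makes the malonyl-CoA that restrains fatty acid oxidation, read 12.8, 146.1 and 147.8. These were low on array 1 alone. Egr1, an immediate early transcription factor, differed between all 3 arrays, with 29.1, 879.4 and 285.7.

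**Figure D4:**
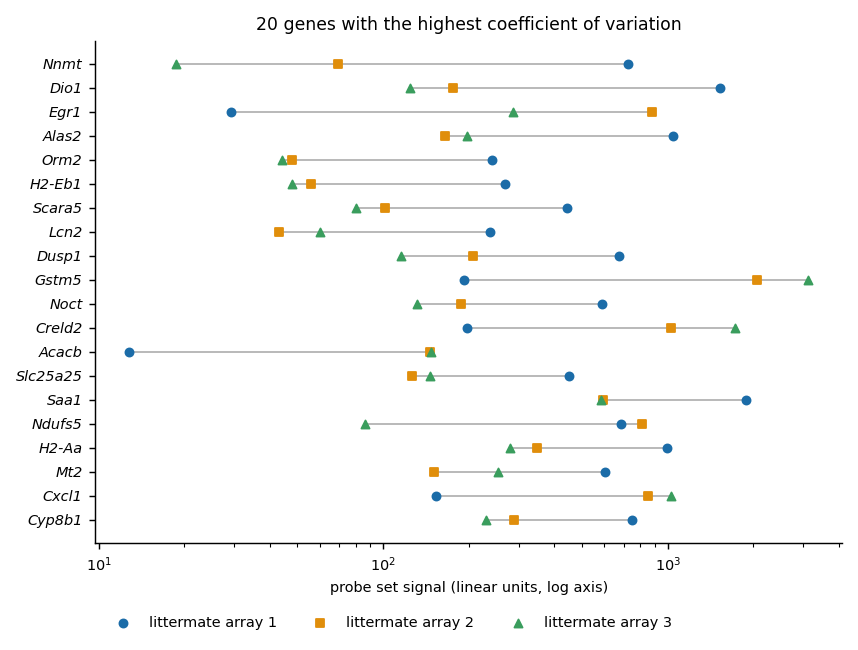
Signal on a log axis of the 20 named genes with the highest coefficient of variation, with 1 point for each littermate array. Array 1 is the outlying point in most rows, on the right for Nnmt, Dio1 and Alas2 and on the left for Gstm5, Creld2, Acacb and Cxcl1, whereas Ndufs5 has array 3 on the left.

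ER folding and secretion genes were lower on array 1. This list had 66 genes with a mean of at least 100. Of these, 59 (89.4%) lay below the mean of arrays 2 and 3 on array 1, against 53.2% of all genes. Array 1 was the lowest of the 3 in 55, against 37.1% of all genes. The median ratio of array 1 to the mean of arrays 2 and 3 was 0.823 in the list and 0.986 over all genes. By the 1.5-fold rule array 1 was the low array in 9 of the 66, against 3.00% of all genes. It was the high array in 1, Tmed7, a receptor of vesicle cargo, against 1.87% of all genes. After quantile normalization the low count was 10.

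Hspa5 (BiP), the main chaperone of the ER lumen, read 2835.2, 5459.9 and 7010, so arrays 2 and 3 averaged 2.20-fold over array 1. Sdf2l1, a partner of BiP, read 200.1, 703.6 and 965.4, a 4.17-fold difference. Manf, a secreted ER stress protein, read 1275.6, 2603.1 and 2776.6, and Dnajb9, a BiP cochaperone, read 703.1, 1369.5 and 1282.2. The arrays 2 and 3 lay closer to each other than to array 1 in each of these genes. Ero1b and Pdia6, which form disulphide bonds, read 459.6, 749.5 and 1032.4, and 464.2, 719.6 and 868. The remaining 3 were Tmed3 and Sec23b of vesicle transport and Srp68 of the signal recognition particle.

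The list did not move as a block. P4hb, a disulphide isomerase and the second brightest member, read 3883.4, 3859.9 and 4628, and Sar1b, a GTPase of ER vesicles, read 2989.3, 2662.3 and 2342.4. Calr, a calcium-binding chaperone, read 2870.3, 3358.7 and 4679.5. P4hb on array 1 was thus level with array 2, Sar1b was highest on array 1, and Calr was lowest there. Outside the list, Creld2, an ER stress-induced disulphide isomerase, read 196.4, 1030.7 and 1730, and Syvn1, the ubiquitin ligase of ER-associated degradation, read 244.1, 503.4 and 945.8. Their arrays 2 and 3 averaged 7.03-fold and 2.97-fold over array 1.

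Promoters of 4 of these genes are shown because they hold the ER stress response element, the site through which ATF6 is known to act. It was searched in the same windows, on both strands, as CCAAT, then 9 bases of any kind, then CCACG. It was in 6 of the 109 genes low on array 1 that had a promoter entry (5.50%), namely Acacb, Creld2, Ero1b, Hspa5, Pdia6 and Syvn1. It was in 10 of the 3792 genes with a mean signal of at least 100 (0.264%) and in 37 of all 27025 genes with an entry (0.137%). In the ER list 7 of 56 genes held it, of which 3 (Ero1b, Hspa5 and Pdia6) were low on array 1 by the rule and 4 (Calr, Canx, Dnajc3 and Hsp90b1) were not. The element includes the letters CCAAT, so it is not counted apart from the CCAAT box. The 250 bases before the start are from chr2:34771840-34772089 for Hspa5, chr15:88819396-88819645 for Creld2, chr19:6046326-6046575 for Syvn1 and chr12:17266339-17266588 for Pdia6, all on the plus strand. Capitals mark the match, which begins 65, 126, 44 and 98 bases before the start; in Creld2 it reads on the opposite strand.
Hspa5: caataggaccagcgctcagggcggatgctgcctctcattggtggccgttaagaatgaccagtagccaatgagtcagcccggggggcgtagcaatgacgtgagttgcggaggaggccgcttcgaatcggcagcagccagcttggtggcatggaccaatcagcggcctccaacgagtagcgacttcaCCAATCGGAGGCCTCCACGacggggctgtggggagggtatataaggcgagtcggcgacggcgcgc
Creld2: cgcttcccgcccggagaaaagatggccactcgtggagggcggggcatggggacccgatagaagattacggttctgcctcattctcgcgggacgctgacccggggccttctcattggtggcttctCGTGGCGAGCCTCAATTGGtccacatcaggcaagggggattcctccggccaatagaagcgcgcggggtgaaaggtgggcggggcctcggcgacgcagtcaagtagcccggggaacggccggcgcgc
Syvn1: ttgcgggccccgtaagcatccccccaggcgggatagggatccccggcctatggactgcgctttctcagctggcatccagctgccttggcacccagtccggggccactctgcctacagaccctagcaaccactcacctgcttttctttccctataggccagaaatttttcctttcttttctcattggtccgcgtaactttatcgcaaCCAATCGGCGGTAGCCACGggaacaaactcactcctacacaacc
Pdia6: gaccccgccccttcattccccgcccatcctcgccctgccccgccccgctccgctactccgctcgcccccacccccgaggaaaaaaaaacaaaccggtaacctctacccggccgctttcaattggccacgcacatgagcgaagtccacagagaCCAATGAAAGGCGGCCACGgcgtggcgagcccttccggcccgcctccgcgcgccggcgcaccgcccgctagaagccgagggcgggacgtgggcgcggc

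Cholesterol synthesis genes were also lower on array 1. Among genes of sterol synthesis and uptake, 17 had a mean of at least 100. Of these, 16 lay below the mean of arrays 2 and 3 on array 1, as 53.2% of all genes did. By the 1.5-fold rule array 1 was the low array in 8 (3.00% of all genes) and the high array in none (1.87%). The median ratio of array 1 to the mean of arrays 2 and 3 was 0.687, and the list's median CV was 26.3%. Hmgcs1, which makes the precursor of mevalonate, read 898.5, 2129.8 and 2674.7. Fdps, which makes farnesyl diphosphate, read 591.8, 1236.9 and 1228.1, and Idi1, an isomerase of the same pathway, read 361.3, 795.9 and 744.1. Sqle, which oxidises squalene, read 147.8, 266.5 and 349.4. In all 4 genes array 1 lay apart from the other arrays. Nsdhl, Dhcr7, Cyp51 and Pmvk were the other 4 of the 8. Ebp read 1639.3, 1823.4 and 1880.2 and Sc5d 1392, 1977.6 and 1209.4, so these late enzymes showed no such gap.

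The CCAAT box was in all 13 sterol genes with a promoter entry. It was in 43.1% of the 3792 genes with a mean signal of at least 100 and in 41.1% of all genes with an entry. Counted by promoter, it was in 13 of the 16 of these sterol genes, against 37.4% of all promoters. The letters TCACNCCAC of a sterol response element, on both strands, were in 1 of the 13 genes, Hmgcs1. They were in 1.58% of the 3792 genes and in 1.44% of all genes with an entry. The Hmgcs1 promoter is shown as the only one of the list with this match, over chr13:119690101-119690350 on the plus strand, with the match in capitals beginning 137 bases before the start.
Hmgcs1: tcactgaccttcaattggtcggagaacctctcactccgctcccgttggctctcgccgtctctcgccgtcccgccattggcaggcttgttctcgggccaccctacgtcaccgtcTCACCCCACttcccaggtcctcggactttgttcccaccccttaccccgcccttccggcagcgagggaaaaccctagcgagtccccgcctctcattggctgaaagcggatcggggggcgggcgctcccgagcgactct

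Most heat shock and lipogenic genes were lower on array 1 too. Of 11 inducible heat shock genes at a mean of at least 100, 10 lay below the mean of the other arrays on array 1, as 53.2% of all genes did, and 5 were low there by the 1.5-fold rule, as 3.00% of all genes were. Hsp90aa1, the inducible cytosolic Hsp90, read 1151.3, 2249.5 and 1795.8, Hsph1 read 226.7, 675.5 and 556.1, and Hspa1b, an inducible Hsp70, read 207.6, 560.4 and 528.8. These 3 were highest on array 2. Hspb1 and Bag3 were the other 2. Hspd1, the mitochondrial chaperonin, read 2324.1, 2640.6 and 2271.5, with no array apart.

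Of 12 feeding-induced lipogenic and glycolytic genes, 10 lay below the mean of arrays 2 and 3 on array 1 (53.2% of all genes) and 4 were low by the rule (3.00% of all genes): Acacb, Elovl6, Fasn and Mlxipl. Fasn, the fatty acid synthase, read 494.7, 1155.6 and 955.4, and Elovl6, which lengthens its product, read 227.8, 617.3 and 357.5. Srebf1, the transcription factor that drives many genes of this list, went the other way with 2042.2, 1048.7 and 1055.3. Array 1 was thus high for the regulator and low for 4 of its list. Fasting-induced genes were split: of 10 with a mean of at least 100, array 1 was high in 1, Lpin1 (1.87% of all genes), and low in 1, Igfbp1 (3.00%), with a median ratio of 0.977. Pck1, which commits carbon to glucose synthesis, read 3476, 3514.1 and 4168.4, and Tat, which degrades tyrosine, read 4133.9, 2805.4 and 2965.3. Among periportal genes Apoa4, an intestinal and hepatic apolipoprotein, read 439.3, 1553.5 and 1648.7.

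Acute phase reactants, plasma proteins that inflammation raises, were split. Array 1 was the high array in 5 of 19 (Apcs, Lcn2, Orm2, Saa1 and Saa2), where 1.87% of all genes were called, and the low array in 1, Cxcl1, which is near the 3.00% of all genes. Saa1, a major acute phase apolipoprotein, read 1893.2, 594.8 and 581.3, and Saa2 read 475.3, 239 and 179.6, so each was high on array 1 alone. Orm2 read 241.3, 47.9 and 44, and Lcn2, which binds bacterial iron carriers, read 237.1, 43.2 and 60. Both read under 100 on arrays 2 and 3, so they passed the minimum mean, and entered the count, only through array 1. Bright members differed less, with the hemoglobin binder Hp at 7118.9, 5758.6 and 6376.2, and the fibrinogens were lowest on array 1. The median ratio of array 1 to the mean of arrays 2 and 3 was 1.19 over the 19.

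Metal and stress response genes were high on array 1 in 4 of 8 and low in none, against 1.87% high and 3.00% low among all genes. Mt1 and Mt2, metallothioneins that bind zinc, read 1512.7, 484.2 and 647.3, and 603.9, 150.9 and 253.5. Sgk1, a kinase that glucocorticoids induce, read 255.5, 146.3 and 113.7, and the clock gene Per1, also induced by glucocorticoids, read 154.5, 100.5 and 88.5. Without array 1, Per1 would not have reached the minimum mean of 100. Fkbp5, another gene that glucocorticoids induce, read 195.6, 179.4 and 189.3, with no array apart. Hmox1, the heme-degrading enzyme, had a mean under 100.

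Among 11 clock and clock output genes with a mean of at least 100, array 1 was high in 3, Noct, Bhlhe40 and Per1 (1.87% of all genes were high), and low in none (3.00%). Per1 reached that mean only with array 1. Noct, a rhythmic phosphatase of cofactors, read 588.3, 187.9 and 131.8 and Bhlhe40, a repressor of the clock, read 536.5, 267.3 and 315.1. The outputs Dbp, with 1421, 1670.5 and 1424.1, and Tef, with 874.7, 770 and 818.9, showed no array apart. Arntl, the clock activator, stood at 17.7 ± 11.8 and Npas2, its partner, at 4.97 ± 3.94.

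Kupffer cell markers were higher on array 1. All 9 with a mean of at least 100 exceeded the mean of arrays 2 and 3 there, where 46.8% of all genes did. Their median ratio was 1.47, against 0.986 over all genes. The summed signal of the 11 measured was 3891.6, 2882.8 and 2414.9. Cd68 and Marco had means under 100, with 69, 44.8 and 48.8, and with 40.6, 48.8 and 7.4. Csf1r read 1119.5, 847.9 and 688.2, and Cd5l, a scavenger receptor protein of macrophages, read 532.6, 358.3 and 311.3. Array 1 was the highest in both. By the 1.5-fold rule 2 were high (1.87% of all genes), C1qb with 347.3, 198.5 and 223.7 and C1qa with 336.6, 219.9 and 222.8. In whole liver, fewer cells of a type and less RNA per cell cannot be told apart. Sinusoidal endothelial markers were summed at 2093.3, 1992.3 and 1578.8, and stellate cell markers at 1932.3, 1872.8 and 1740.

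The class II antigens H2-Aa and H2-Eb1, which present peptides on immune cells, read 991.7, 346.1 and 280, and 267.4, 55.6 and 47.8. H2-Eb1 passed the minimum mean of 100 only through array 1. A second H2-Aa probe set read 407.1, 525.7 and 292.4 and was highest on array 2, so the probe sets of this gene differed in order. Cd74, the invariant chain of class II, read 751.9, 718.9 and 483.8. Kupffer cell markers moved in the same direction as the first probe sets, and their part in these signals was not tested. Interferon-response genes showed less, with 8 at a mean of at least 100. Irf7 was high on array 1 (1.87% of all genes) with 205.8, 101.9 and 113.8, and none was low (3.00%). The brightest of them, the GTPase Iigp1, read 1993.1, 2382.3 and 2716.4.

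**Figure D5:**
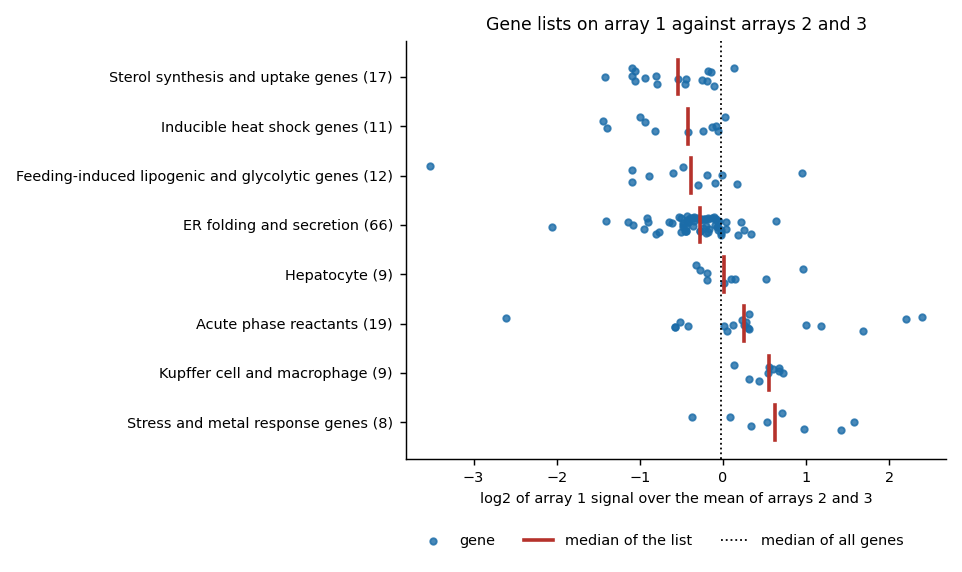
Log2 of the array 1 signal over the mean of arrays 2 and 3 for genes with a mean signal of at least 100, by list, with the number of genes in parentheses, the median of each list and, dotted, the median of all 4595 genes. The sterol, heat shock, lipogenic and ER lists lie mostly left of the dotted line and the Kupffer list right of it, while hepatocyte markers straddle it.

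By the 1.5-fold rule array 3 was also low in Nnmt and Dusp1 and high in Gstm5, Creld2 and Syvn1, all named above for array 1. In other genes array 3 was low and array 1 was not called. Cyp7a1, the rate-limiting enzyme of bile acid synthesis, read 813.8, 1063.9 and 202.1. Its second probe set read 197.2, 220.7 and 38.1 in the same order. G6pc, an enzyme of glucose release, read 1546, 1060.7 and 523.8, and Serpina12, an adipokine of the serpin family, read 1033.9, 2049.4 and 634.5. Ndufs5, a subunit of complex I, read 685.4, 812.7 and 86.1, and Mdh1, the cytosolic malate dehydrogenase, read 3977.9, 3883.9 and 2154. All 5 were lowest on array 3, where Ndufs5 lay far below the steady list of respiratory chain genes to which it belongs.

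Repeat probe sets give a partial check on single values. Of the 53 genes with a CV over 50%, 15 had 1 or more further probe sets with a mean of at least 50, 18 probe sets in all. All 18 had a CV above 11.5%, the median of genes with a mean of at least 100. The median was 17.9% for means from 50 to 100, so dimmer probe sets exceed 11.5% more readily. Of the 18, 8 exceeded 50%, and 9 ordered the 3 arrays as the first did. Saa1 read 1367.5, 563.9 and 440.6 on its second probe set and Apoa4 read 150.8, 700 and 997.3. The second set of Lpin1, a phosphatase of triglyceride synthesis, read 866.6, 297.4 and 373.5 beside 959.3, 351 and 444.7 on the first. These share RNA with the first probe set and so are not separate samples.

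Most lists of cell types and liver states spread more than genes at large. Some genes are in more than 1 list, so the lists are not separate results. They were also chosen with earlier results of these data known. As deposited, all 16 cell type and state lists with at least 5 genes at a mean of 100 or more had a median CV above the 11.5% of all genes, from 11.9% for hepatocyte markers to 27.2% for stress and metal response genes. After quantile normalization 15 of the 16 did, and hepatocyte markers, at 6.89%, did not. Sterol genes had 26.3%, Kupffer cell markers 25.6%, acute phase reactants 24.0% and lipogenic genes 23.6%, against 13.8% for pericentral and 15.1% for periportal genes. Without array 1, 11 of the 16 lay above the median of the remaining pair.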

How the data were processed

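Liver RNA of 3 nontransgenic littermates was measured on 3 Affymetrix arrays. Per the deposited files, each probe set has 1 intensity per array, and RMA, without a version, is the only tool in the submitters' processing notes. The numbers reach far beyond a log range, include 0 and share a trimmed mean, so they were used as linear signals. How the authors scaled them, and the genome build of the array, are not given in the sources used here. The 12 arrays of the other groups were not used here, and 0 columns were left without a sample.

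Each gene was represented by the single-gene probe set with the highest mean over the 3 arrays. Means and SDs (n = 3) are of linear signals. Replicate labels call the samples biological. An array was called apart where its signal lay more than 1.5-fold above or below both others, at a mean signal of at least 100. No test was run. Of 20380 single-gene probe sets, 20359 carried a RefSeq symbol.

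The arrays and lists were chosen with earlier results of these data known, and the pattern for mitochondrial genes was widened after the files were seen. The rule for named genes took the 30 brightest, the up to 4 brightest of each function list, the up to 4 brightest and 3 most variable of each marker or state list, and the 20 most and 10 least variable genes, clone and predicted-gene symbols passed over. Other genes, such as Syvn1, were named after their values were seen. Motifs were searched in RefSeq promoters of GRCm38.p6.

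Alternatives were quantile normalization, the mean of a gene's probe sets, all probe sets, other minimum signals and denominators, and leaving out each array. The rule for arrays apart was added after the data were seen, with its own alternatives. On simulated data of 4595 genes, 100% of the genes set 3-fold apart were found. That checks the code and does not measure how reliable calls near 1.5-fold are. Scripts ran in Python 3.11.15 with pandas 2.3.3, numpy 2.4.6 and matplotlib 3.10.9.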

Additional observations from a re-analysis of the deposited data

How the results depend on the processing

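No paired analysis was possible because the results come from 1 group and no test. Quantile normalization moved no count or share of the summary results beyond the spread or 1.5 times. The 50 brightest genes held 16.5% of the signal with the mean of a gene's probe sets, 10.5% over all probe sets and 15.6% of the signal of genes with a mean of at least 100, and 13.9 to 14.7% with 1 array left out. The plasma and lipoprotein share was 15.8% with the mean of probe sets, 14.8% with the smaller denominator and 13.4 to 14.0% with 1 array left out. The median CV was 20.5% with no minimum signal and 8.50 to 10.6% with 1 array left out. Genes with a CV over 50% numbered 80 over all probe sets, 102 at a minimum signal of 50, 30 at 200 and 2278 with no minimum. With 1 array left out they numbered 28 to 98, the lowest without array 1 and the highest without array 2. The lists above the median CV numbered 11 to 16. Array 1 was the low array in 73 genes at a minimum signal of 200 and in 32 at 2-fold, and the high array in 51 and 21. The cause of these changes was not tested, apart from the number of genes counted. Of the 50 brightest genes, 50 were among the 50 brightest after quantile normalization and 43 with the mean of probe sets, and 49 of the 53 genes with a CV over 50% also exceeded it after quantile normalization. Precision is limited by 3 arrays and, for genes under a signal of 100, by signals near background.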
